A study of Mus musculus with 36 samples.

Results

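Added neprilysin inhibition was examined in the ligated left carotid artery of 129X1/SvJ (129X1) mice as the difference between sacubitril/valsartan (Sac/val) and valsartan alone (Val). The comparison used 12 of the 36 RNA sequencing libraries of the series, 6 of Sac/val and 6 of Val, each from 1 mouse, and 17281 genes were tested of 49568 gene symbols counted. Sac/val was given at 60 mg/kg/day and Val at 27 mg/kg/day, and a vehicle group, used here only as the untreated level, received 2 mL/kg/day. Under the prophylactic regimen dosing ran for 16 days from day -2 relative to ligation, and under the therapeutic regimen for 7 days from day 7, with 3 mice per treatment and regimen. All mice, vehicle included, had a ligated carotid artery that was collected on day 14, so no group here represents an uninjured vessel. C57BL/6J (B6) mice given the same drugs served for the comparison between strains.

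Valsartan blocks the angiotensin II type 1 receptor, and the active form of sacubitril inhibits neprilysin, a membrane peptidase encoded by Mme that degrades natriuretic peptides, bradykinin, adrenomedullin, endothelin and several neuropeptides. Natriuretic peptides act on the receptors encoded by Npr1 and Npr2, which make cyclic GMP, a second messenger that relaxes vascular smooth muscle and restrains its growth, while the receptor encoded by Npr3 clears the peptides. Ligation of the carotid artery stops flow and leads to remodelling of the wall by smooth muscle cells, adventitial fibroblasts and leukocytes. Sac/val minus Val therefore sets both drugs together against the receptor blocker by itself. Protein, enzyme activity and peptide levels were not measured in these libraries, and a change in enzyme activity need not appear as a change in RNA.

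The 12 libraries held total counts of 19.6 to 24.6 (in units of 1e6) and 22566 to 23677 detected genes. Smooth muscle was present in all of them, with Myh11, the smooth muscle myosin heavy chain, at 40.5 to 546 CPM (counts relative to the library total, with TMM scaling). Markers of tissues that border the carotid artery varied many-fold from mouse to mouse. Rag1, a thymocyte gene, was at 0.093 to 396 CPM in the Sac/val libraries and at 0.179 to 375 CPM in the Val libraries. Acta1, skeletal muscle actin, spanned 4.77 to 10499 CPM in Sac/val and 69.3 to 10220.4 CPM in Val libraries, and Tg, thyroglobulin, reached 9282 CPM in 1 Sac/val library and 568 CPM in 1 Val library. Across genes, log2 expression profiles of 2 libraries of the same group correlated with a median r of 0.901 over 12 pairs, beside a median of 0.912 for libraries of different groups. In tissue of this kind, fewer cells of a type and less RNA per cell cannot be told apart.

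Across both regimens no gene passed. At an adjusted p below 0.05 (edgeR quasi-likelihood test with regimen as a covariate, Benjamini-Hochberg adjustment), 0 of 17281 genes were called (0%), and the smallest adjusted p was 0.999. DESeq2 and limma voom also called 0 genes, and the alternatives tried put 262 to 4768 genes at an unadjusted p below 0.05, the most in limma voom. At an unadjusted p below 0.05 there were 379 genes, 63 higher in Sac/val (0.365% of genes tested) and 316 lower (1.83%). The groups of 6 did not overlap for 2 genes higher in Sac/val (0.0116%; Tesk2 and Gm37194) and 1 lower (0.00579%; Pick1), which are named after their values were seen. Of the 12470 genes at 5 CPM or more, 84.2% had a 95% interval that lay within a 2-fold change in either direction (log2 between -1 and 1), and the median half-width of the interval was 0.37 log2. One library decided this count: without Val prophylactic replicate 3, 303 genes passed, 3 higher in Sac/val (0.017% of 17661 tested) and 300 lower (1.7%), described below with the nerve genes. Of the 12 omissions of 1 library, it was singled out for the most genes at an unadjusted p below 0.05 (1707). Calls and adjusted p values without that library, here and below, therefore follow a choice made on these same data.

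The drug target itself gave no difference that passed, and its values ran in opposite directions in the 2 regimens. Mme (chr3:63241537-63386030, plus strand) was at 66.5, 72.5 and 76.2 CPM in Sac/val prophylactic libraries, against 53.2, 112 and 176.3 CPM in Val prophylactic libraries. In the therapeutic regimen it was at 105, 95.6 and 141 CPM in Sac/val libraries, against 84.3, 70.6 and 86.1 CPM in Val libraries. All 3 therapeutic Sac/val libraries lay above all 3 therapeutic Val libraries, while the prophylactic groups overlapped. The log2 difference was -0.10 over both regimens (95% interval -0.78 to 0.59), -0.73 in the prophylactic regimen (-1.52 to 0.06) and 0.54 in the therapeutic regimen (-0.25 to 1.33). The difference between the regimens was 1.27 ± 0.50 log2 (SE) and did not pass (adjusted p = 0.838). Vehicle arteries averaged 110 ± 29.0 CPM (SD, n = 6), so neprilysin RNA was present at a moderate level with or without drug. Without Val prophylactic replicate 3, the library with the highest Mme level, the value over both regimens was 0.20 log2.

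None of the 3 natriuretic peptide receptors passed. Npr1 (chr3:90450591-90465866), the receptor for atrial and B-type natriuretic peptide, averaged 89.2 ± 22.6 CPM in Sac/val and 96.2 ± 18.5 CPM in Val arteries (SD, n = 6 each), a log2 difference of -0.10 (-0.51 to 0.30). Npr2 (chr4:43631935-43651244), the receptor for C-type natriuretic peptide, averaged 73.6 ± 15.1 CPM in Sac/val and 87.6 ± 22.7 CPM in Val arteries, a log2 difference of -0.24 (-0.66 to 0.17). The clearance receptor gene Npr3 (chr15:11839896-11907287) averaged 23.7 ± 11.6 CPM in Sac/val and 23.8 ± 10.6 CPM in Val arteries, a log2 difference of -0.03 (-0.81 to 0.75). Its 2 highest libraries were Sac/val therapeutic replicate 3 at 46.7 CPM and Val prophylactic replicate 3 at 43.9 CPM, with the other 10 between 15.4 and 25.001 CPM. The intervals of Npr1 and Npr2 lay within a 2-fold change in both directions, as did that of Npr3. The plot of the 6 target and receptor genes by library shows the spread behind these means.

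**Figure D1:**
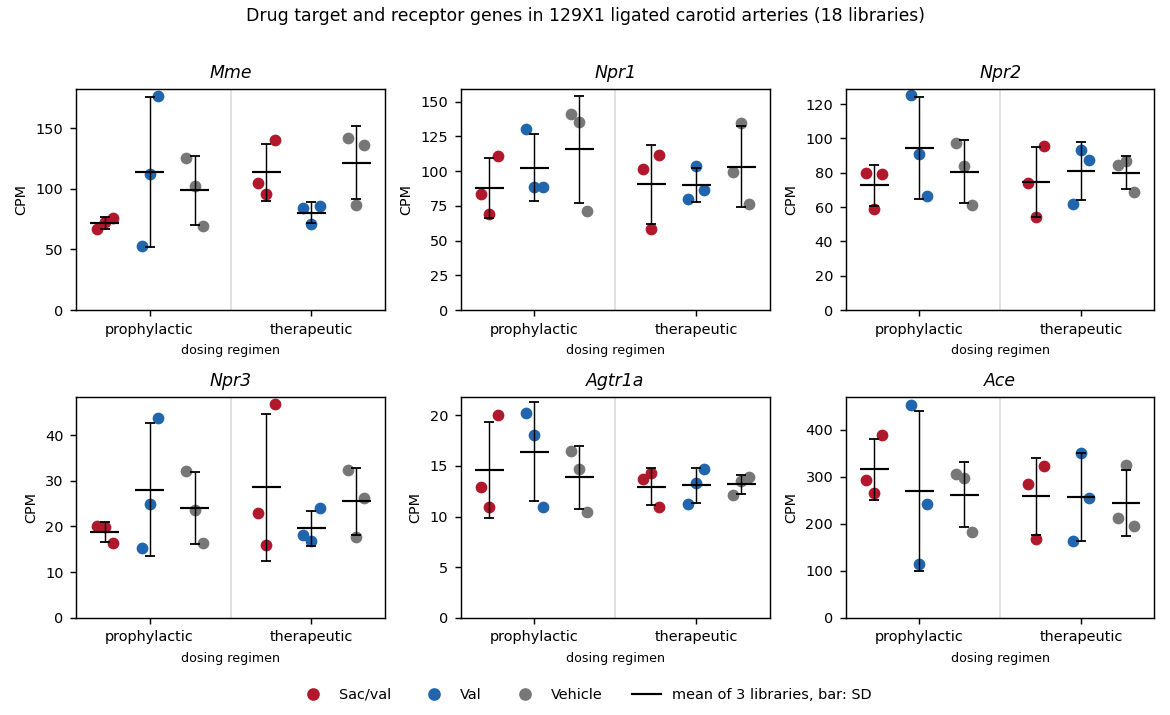
Expression in CPM (y axes, linear, from 0) of Mme, Npr1, Npr2, Npr3, Agtr1a and Ace in each 129X1 library, with Sac/val, Val and vehicle side by side within each regimen. Points are libraries, lines are means of 3 libraries and bars are SD, and the drug groups overlap in every panel except Mme in the therapeutic regimen.

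RNA encoding the peptides themselves was close to absent from these arteries. Nppa, which encodes atrial natriuretic peptide, had 0 counts in all 6 Sac/val libraries and 1 count each in 3 Val libraries, and Nppb was no higher than 0.153 CPM in any of the 12. Nppc, which encodes the C-type peptide made by endothelium, had 6, 7, 2, 1, 8 and 10 counts in the Sac/val libraries and 2, 0, 1, 1, 3 and 2 counts in the Val libraries. Those 34 counts against 9 were under the minimum for the test in 129X1, so no fold or p is given. Corin (chr5:72300025-72504473), a protease that activates atrial natriuretic peptide, was the lowest-p member of the natriuretic peptide list, with 0.127 to 0.665 CPM in Sac/val and 0.189 to 2.61 CPM in Val libraries. Its log2 difference was -1.64 ± 0.50 (SE; adjusted p = 0.999), on counts so low that the whole range lay under 3 CPM. Without Val prophylactic replicate 3, which was the lowest Val library at 0.189 CPM, Corin passed at a log2 difference of -1.91. Over the list, 1 of 14 tested genes was lower at an unadjusted p below 0.05 (beside 1.83% of all genes) and 0 were higher (beside 0.365%). The median log2 difference was -0.17, beside 0.01 over all genes tested.

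Downstream of the receptors, no gene that makes, removes or answers to cyclic GMP passed. The soluble guanylate cyclase subunits Gucy1a3 and Gucy1b3, which make cyclic GMP in response to nitric oxide, gave log2 differences of -0.23 (-0.81 to 0.35) and -0.29 (-0.78 to 0.21). The phosphodiesterase genes that remove cyclic GMP were centred near 0, at 0.08 for Pde5a, -0.03 for Pde2a, -0.11 for Pde3a and -0.28 for Pde9a. Prkg1, the cyclic GMP-dependent kinase of smooth muscle, was at 0.997, 0.956 and 0.708 CPM in Sac/val prophylactic libraries, against 2.47, 1.21 and 17.5 CPM in Val prophylactic libraries. The high value belonged to Val prophylactic replicate 3, and the prophylactic log2 difference of -3.07 ± 1.18 (SE) did not pass (adjusted p = 0.663). In the therapeutic regimen Prkg1 was at 0.718, 0.456 and 6.28 CPM in Sac/val libraries, against 0.708, 1.84 and 2.04 CPM in Val libraries, a log2 difference of 0.74 ± 1.11 (SE), and over both regimens it gave -1.16 ± 1.10 (SE). Its related kinase gene Prkg2 gave -0.29 (-0.75 to 0.17). Furin and Pcsk6, proteases that process peptide precursors, gave 0.04 and 0.11.

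**Figure D2:**
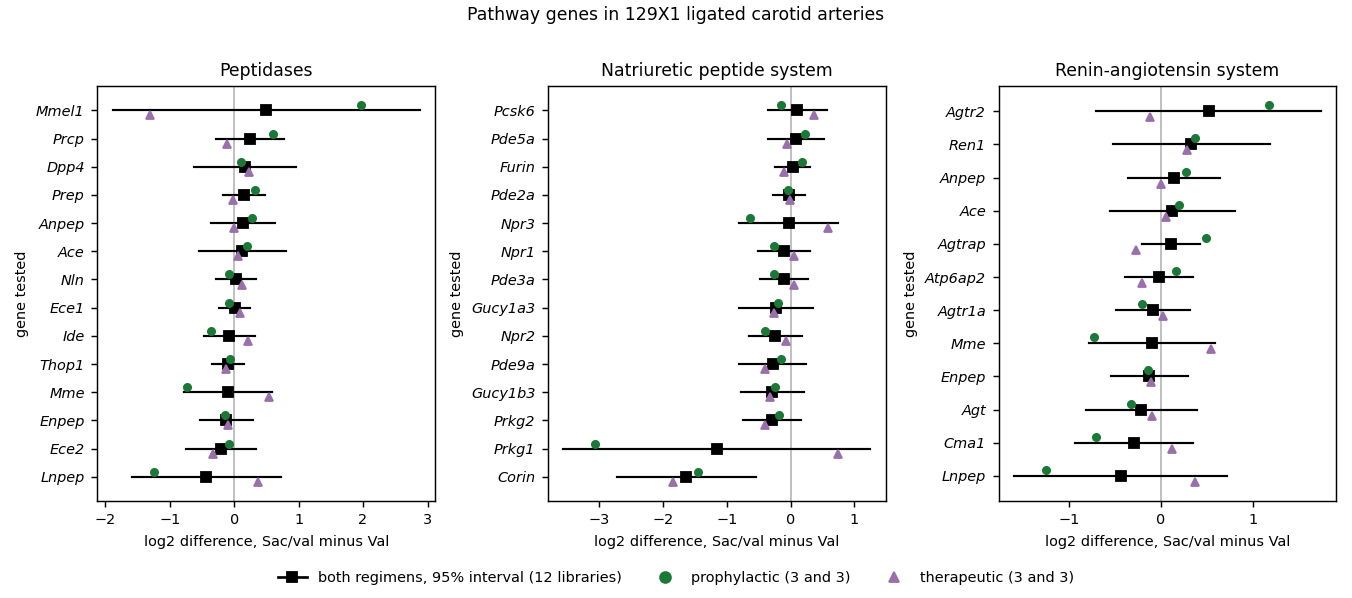
Log2 difference, Sac/val minus Val (x axes), for tested genes of the peptidase, natriuretic peptide and renin-angiotensin lists (rows), with squares and lines for both regimens with the 95% interval, circles for the prophylactic and triangles for the therapeutic regimen. Corin is the 1 gene shown whose interval over both regimens excludes 0, and it did not pass after adjustment.

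No angiotensin pathway gene passed either. Agtr1a (chr13:30336441-30382867), the type 1 receptor that valsartan blocks, averaged 13.8 ± 3.34 CPM in Sac/val and 14.7 ± 3.75 CPM in Val arteries, a log2 difference of -0.09 (-0.49 to 0.31). Ace (chr11:105967945-105989964), which makes angiotensin II and degrades bradykinin, averaged 287 ± 73.3 CPM in Sac/val and 263 ± 123 CPM in Val arteries, a log2 difference of 0.12 (-0.55 to 0.80). Cma1, mast cell chymase, gave -0.29 (-0.93 to 0.34). Agtr1b, Mas1 and Ctsg were under the minimum for testing. None of the 13 tested renin-angiotensin genes reached an unadjusted p below 0.05 over both regimens, and their median was -0.09.

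One angiotensin gene differed in direction between the regimens without passing. Agtrap encodes a protein that binds the type 1 receptor and promotes its internalization. It was at 59.9, 61.9 and 59.7 CPM in Sac/val prophylactic libraries, against 47.6, 43.5 and 35.0 CPM in Val prophylactic libraries, and at 40.4, 45.7 and 51.5 CPM in Sac/val therapeutic libraries, against 56.8, 60.7 and 53.4 CPM in Val therapeutic libraries. The groups did not overlap in either regimen, with Sac/val higher in the prophylactic and lower in the therapeutic one. The difference between regimens was -0.76 ± 0.18 log2 (SE; adjusted p = 0.838).

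Among the peptidases, 0 of 15 tested genes reached an unadjusted p below 0.05, and the median log2 difference was 0.01. Ece1, an endothelin-converting enzyme of the neprilysin family, gave 0.01 (-0.24 to 0.25). Prep, prolyl endopeptidase, gave 0.15 (-0.17 to 0.47), and Ide, the insulin-degrading enzyme, gave -0.08 (-0.47 to 0.32). Lnpep, the angiotensin IV-binding aminopeptidase, was at 7.12, 11.6 and 7.21 CPM in Sac/val prophylactic libraries, against 5.46, 7.83 and 44.6 CPM in Val prophylactic libraries. The value of 44.6 CPM belonged to Val prophylactic replicate 3, and the other 11 libraries lay between 5.46 and 14.2 CPM.

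Other neprilysin substrates and their receptors gave a median of 0.05 over 23 tested genes, of which 0 reached an unadjusted p below 0.05 over both regimens. In the prophylactic regimen 3 of 23 were higher at that level, beside 2.85% of all genes, and 0 were lower. They were Calcb, a calcitonin gene-related peptide gene at under 1 CPM, Bdkrb1, the inducible bradykinin receptor, and Aplnr, the apelin receptor, chosen after their values were seen. Aplnr was at 37.9, 56.6 and 60.2 CPM in Sac/val prophylactic libraries, against 32.3, 24.1 and 30.7 CPM in Val prophylactic libraries, groups that did not overlap. Its log2 difference was 0.78 ± 0.27 (SE; adjusted p = 0.663) in the prophylactic and -0.42 in the therapeutic regimen. Adm, Edn1 and Calcrl, which encode adrenomedullin, endothelin 1 and the adrenomedullin and calcitonin gene-related peptide receptor, gave -0.06, 0.05 and 0.16 over both regimens. The neuropeptide genes Vip and Npy gave the lowest values of the list, at -1.13 ± 0.67 and -1.07 ± 0.64 (SE), and both were lowest in Val prophylactic replicate 3 among the Val libraries, as was Stmn2.

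Whether Stmn2 passed depended on 1 library. Stmn2, a growth-associated protein of neurons, was at 227, 178.1 and 189 CPM in Sac/val prophylactic libraries, against 581, 659 and 24.99 CPM in Val prophylactic libraries. In the therapeutic regimen it was at 83.0, 157 and 37.9 CPM in Sac/val libraries, against 181.8, 224 and 254 CPM in Val libraries. Within each regimen every Val library was above every Sac/val library, except Val prophylactic replicate 3, which was below all 6 Sac/val libraries. Vehicle libraries ranged from 14.3 to 258 CPM, so the 2 high Val prophylactic libraries lay above all 6 of them. Over both regimens the log2 difference was -1.16 ± 0.57 (SE; adjusted p = 0.999), and without Val prophylactic replicate 3 it was -1.41 ± 0.30 (adjusted p = 0.0465).

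Stmn2 belongs to a list of 14 sympathetic neuron and glomus cell genes. Over both regimens 12 of 14 had a log2 difference below 0 (median -0.78), and 0 reached an unadjusted p below 0.05. In the therapeutic regimen 11 of 14 had all 3 Sac/val libraries below all 3 Val libraries, beside 5.15% of all genes, and the median was -0.87. Th, tyrosine hydroxylase, the first enzyme of catecholamine synthesis, was at 111.4, 87.6 and 75.6 CPM in Sac/val prophylactic libraries, against 166.9, 195 and 12.6 CPM in Val prophylactic libraries. Therapeutic libraries had Th at 53.7, 57.7 and 5.02 CPM under Sac/val, against 76.7, 68.8 and 65.7 CPM under Val. Prph, the intermediate filament peripherin, gave -1.06 ± 0.61 log2 (SE). Chga, chosen after its values were seen, ran from 2.79 to 6605 CPM in Sac/val and from 37.1 to 5035 CPM in Val libraries. The 14 genes summed to 6401 CPM in Sac/val and 4015 CPM in Val prophylactic replicate 3. There the thyroid and parathyroid list summed to 4633 and 3726 CPM, with Tg at 0.354 and 10.9 CPM. Sac/val therapeutic replicate 3 had sums of 105 and 9430 CPM, with Tg at 9282 CPM. The part of parathyroid tissue in the Chga range was not tested.

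**Figure D3:**
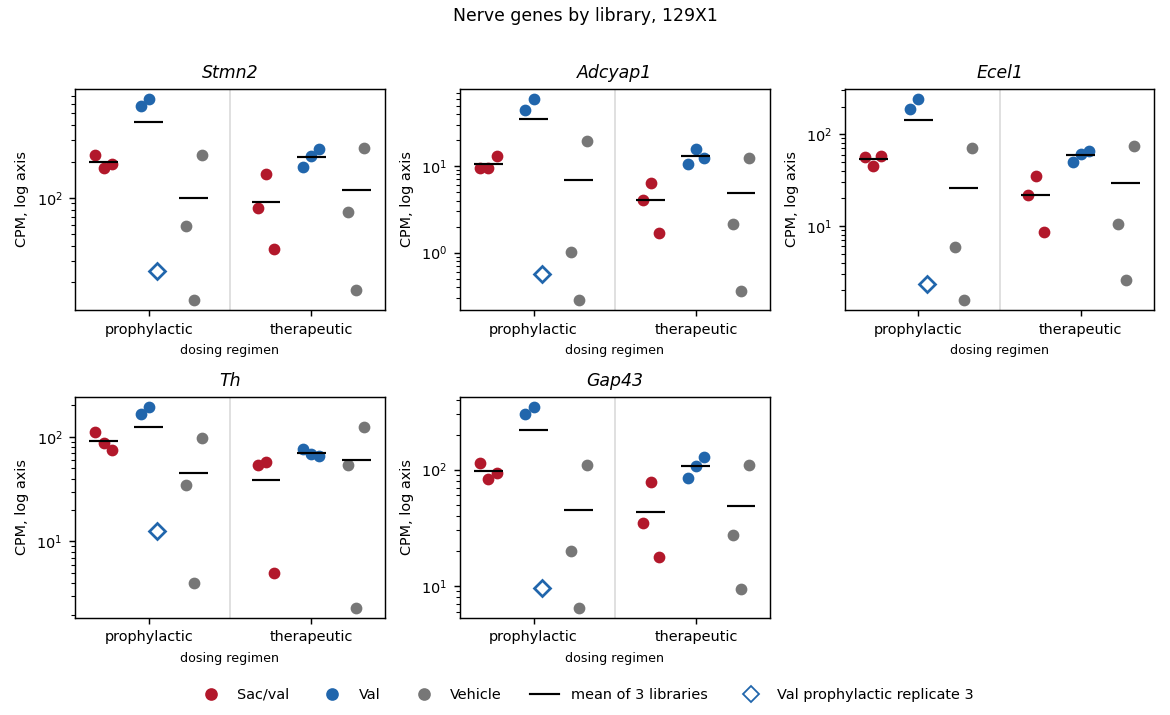
Expression in CPM (y axes, log scale) of 5 nerve genes in each 129X1 library, with Sac/val, Val and vehicle side by side within each regimen. Points are libraries, lines are means of 3 libraries, and the open diamond is Val prophylactic replicate 3, which lies below every other drug-treated library for Stmn2, Adcyap1, Ecel1 and Gap43.

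Without Val prophylactic replicate 3, 300 genes were lower in Sac/val (1.7% of those tested), among them 1 of the 14 sympathetic neuron and glomus cell genes (Stmn2) and 0 of the 11 Schwann cell genes. Fitted by regimen without that library, 86 genes passed in the prophylactic regimen (0.487% of 17661) and 0 in the therapeutic regimen. The 10 largest differences at 5 CPM or more, predicted gene models passed over, were Adcyap1, Cckbr, Gpr151, Sez6l, Sox11, Slc44a5, Ecel1, Slc6a15, Mir124a-1hg and Wfdc3, with log2 differences of -1.95 to -1.62 and adjusted p from 0.0264 to 0.0446. In the therapeutic regimen alone their edgeR adjusted p ran from 0.801 to 0.982. Adcyap1 encodes the neuropeptide PACAP, which injured peripheral neurons raise. It was at 9.50, 9.56 and 13.0 CPM in Sac/val prophylactic and at 4.06, 6.38 and 1.67 CPM in Sac/val therapeutic libraries, against 44.4 and 59.7 CPM in the 2 Val prophylactic libraries kept, and 10.50, 15.9 and 12.5 CPM in Val therapeutic libraries. The library left out had 0.566 CPM. Vehicle libraries ranged from 0.285 to 19.6 CPM, so they reached the level left out and lay below the 2 Val prophylactic libraries kept. Ecel1, a neuronal peptidase of the neprilysin family, was at 56.9, 45.2 and 57.6 CPM in Sac/val prophylactic libraries, against 187 and 243 CPM in the Val prophylactic libraries kept, with 2.31 CPM in the one left out. Vehicle libraries had Ecel1 at 1.56 to 74.1 CPM. Gap43 and Nefl, a growth cone protein and a neurofilament subunit named after their values were seen, gave -1.48 ± 0.32 and -1.45 ± 0.22 log2 (SE) without that library.

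Of those 300 genes, 293 had been tested in all 12 libraries too. The library left out was the lowest of all 12 for 252 of them, and its median level over them was 2.69 CPM, beside medians of 8.95 CPM for the Sac/val means and 19.8 CPM for the means of the other 5 Val libraries. For 275 of the 293 (93.9%), all 3 therapeutic Sac/val libraries lay below all 3 therapeutic Val libraries, beside 5.15% of all genes, but these genes were chosen from the same libraries, so the share is given as a description. Of the listed genes, only Stmn2 and Corin were among the 303. The 3 higher genes were Slc40a1, Gm37194 and Igkv8-19. Genes of Schwann cells, the glia of peripheral nerve fibres, gave a median of -0.38 over 11 genes with 0 at an unadjusted p below 0.05, with Cdh19 at -0.46 ± 0.24 log2 (SE). How much nerve or ganglion each dissection contained was not recorded in the labels. With thymocyte, thyroid and sympathetic scores as covariates, Prph gave 0.057 and Vip 0.076 log2 over both regimens. The sympathetic score was made from the listed genes, Prph among them, so that fit cannot tell nerve content from expression. The part of nerve content in the result was not otherwise tested.

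By the smallest unadjusted p at 5 CPM or more over both regimens, the 10 lower genes were Ppfia2, St6galnac5, Slc4a8, Ppfia3, Kif21a, Pak1, Dffa, Akap6, Tnik and Shc4. Ppfia2 and Ppfia3 encode liprins that organise presynaptic sites, and Slc4a8 is a sodium-driven bicarbonate transporter of neurons. Ppfia2 (chr10:106470339-106935952) was at 4.99, 6.11 and 7.26 CPM in Sac/val prophylactic libraries, against 13.6, 17.5 and 8.58 CPM in Val prophylactic libraries. In the therapeutic regimen it was at 2.58, 4.81 and 4.42 CPM in Sac/val libraries, against 6.00, 7.65 and 7.25 CPM in Val libraries. The groups did not overlap within either regimen. The log2 difference was -0.97 ± 0.21 (SE; unadjusted p = 0.000651, adjusted p = 0.999). The other 9 ranged from -0.97 for Akap6, an A-kinase anchoring protein, to -0.47 for Shc4, a signalling adaptor, and Ppfia2, Slc4a8, Ppfia3, Kif21a and Tnik passed when Val prophylactic replicate 3 was left out.

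The 10 higher genes by the same rule were Ighg2b, Alg8, Hmox1, Creld2, Mfsd2a, Rnaset2a, Cdca7l, Mir6236, Slc40a1 and Sesn2, none passing. Hmox1 (chr8:75093621-75100589) encodes heme oxygenase 1, which degrades heme, and Slc40a1 encodes ferroportin, the iron exporter. Hmox1 was at 80.0, 110 and 116.6 CPM in Sac/val prophylactic libraries, against 64.6, 36.4 and 64.7 CPM in Val prophylactic libraries, and at 129, 106.5 and 105 CPM in Sac/val therapeutic libraries, against 43.6, 113.2 and 88.2 CPM in Val therapeutic libraries. All 6 Sac/val libraries were at or above 80.0 CPM, and 4 of 6 Val libraries were at 64.7 CPM or lower. The log2 difference was 0.67 ± 0.23 (SE; unadjusted p = 0.0129, adjusted p = 0.999). Slc40a1 was at 34.1 to 64.8 CPM in Sac/val libraries and at 19.5 to 43.6 CPM in Val libraries, a log2 difference of 0.51 ± 0.21 (SE) that passed at 0.73 ± 0.14 without Val prophylactic replicate 3 (adjusted p = 0.0367). Creld2 and Sesn2, genes of the endoplasmic reticulum and amino acid stress responses, gave 0.29 ± 0.10 and 0.27 ± 0.11 log2 (SE). Ighg2b, an immunoglobulin heavy chain gene, gave the largest value, 2.87 ± 0.95 log2 (SE), with 0.0885 to 75.03 CPM in Sac/val and 0.0949 to 11.3 CPM in Val libraries.

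No gene of the vessel wall lists passed over both regimens. Contractile smooth muscle genes had a median of -0.22 over 15 genes, with 14 below 0 and 0 at an unadjusted p below 0.05. Synpo2, an actin-bundling protein, and Lmod1, leiomodin of smooth muscle, had the smallest p, at -0.75 ± 0.62 and -0.51 ± 0.42 log2 (SE). Myh11 gave -0.26 (-1.35 to 0.83). The modulated smooth muscle list had a median of 0.36 over 14 genes, led by Postn, periostin, at 0.58 ± 0.33 and Fn1, fibronectin, at 0.53 ± 0.33. Its median was 0.74 in the prophylactic regimen, with 14 of 14 above 0. In the therapeutic regimen it was -0.18, with 9 of 14 below 0. Endothelial genes had a median of 0.03, and 13 of 15 had intervals within a 2-fold change in either direction. Selp and Sele, the selectins that capture leukocytes, gave 0.39 ± 0.31 and 0.55 ± 0.50. Adventitial fibroblast genes had a median of 0.10 over 12, with Mfap5 at 0.24 and Lum at 0.27.

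No matrix gene passed, and the lists differed in direction by regimen. The fibrillar and elastic matrix list had 23 of 25 genes above 0 over both regimens, a median of 0.30 and 0 genes at an unadjusted p below 0.05. All 25 were above 0 in the prophylactic regimen (median 0.69), while 8 were above and 17 below 0 in the therapeutic regimen (median -0.07). The collagen and elastin crosslinking enzyme Lox was at 132, 168.7 and 139 CPM in Sac/val prophylactic libraries, against 125, 57.2 and 59.4 CPM in Val prophylactic libraries. Therapeutic libraries had Lox at 99.4, 94.5 and 88.5 CPM under Sac/val, against 38.5, 124 and 86.0 CPM under Val, and its log2 difference over both was 0.53 ± 0.28 (SE). The prophylactic groups did not overlap and the therapeutic ones did. Col5a2, a fibrillar collagen, gave 0.42 ± 0.31. The 28 genes of matrix proteases and their inhibitors had a median of 0.23 over both regimens, with 23 above 0 in the prophylactic (median 0.64) and 20 below 0 in the therapeutic regimen (median -0.16). Among them were Adam12 at 0.40 ± 0.24 and Mmp15 at -0.37 ± 0.22, and the TGF-beta list had a median of 0.13 over 17, with Inhba at 0.93 ± 0.69 on under 2 CPM.

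Within the prophylactic regimen 0 of 17281 genes passed (0%), with a smallest adjusted p of 0.663. At an unadjusted p below 0.05, 492 genes were higher in Sac/val (2.85%) and 481 lower (2.78%). The 3 Sac/val and 3 Val libraries did not overlap for 1268 genes higher (7.34%) and 648 lower (3.75%). DESeq2 called 17 genes here (0.0984%), and 86 genes passed edgeR without Val prophylactic replicate 3 (0.487% of 17661). The 3 smallest p in each direction belonged to Laptm5, Tuba1c and Pstpip1, which were higher, and Atp8a1, Kit and Cpeb2, which were lower, and all 6 were among the 17 DESeq2 calls.

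Laptm5 encodes a lysosomal membrane protein of leukocytes. It was at 199, 361 and 239 CPM in Sac/val prophylactic libraries, against 90.7, 92.0 and 115.9 CPM in Val prophylactic libraries, a log2 difference of 1.37 ± 0.26 (SE; edgeR adjusted p = 0.663, DESeq2 adjusted p = 0.00159). Pstpip1, a cytoskeletal adaptor of blood cells, was at 28.4, 54.3 and 24.4 CPM in Sac/val prophylactic libraries, against 8.02, 10.8 and 13.4 CPM in Val prophylactic libraries. Vehicle prophylactic libraries spanned both levels, with Laptm5 at 50.9, 280.04 and 281 CPM. In the therapeutic regimen the order was not kept, as Laptm5 was at 191.8, 306 and 194 CPM in Sac/val libraries, against 288, 292 and 235 CPM in Val libraries.

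Atp8a1, a phospholipid flippase, had the smallest unadjusted p of the prophylactic comparison (4.65e-05). It was at 50.5, 55.1 and 50.6 CPM in Sac/val prophylactic libraries, against 80.7, 87.8 and 76.9 CPM in Val prophylactic libraries, and its log2 difference was -0.69 ± 0.10 (SE; edgeR adjusted p = 0.663, DESeq2 adjusted p = 2.30e-08). Therapeutic libraries were level, at 49.9, 47.1 and 52.2 CPM in Sac/val and 52.4, 47.5 and 52.4 CPM in Val. The Val prophylactic libraries lay above both Sac/val groups and Val therapeutic, but the vehicle libraries reached the same range, at 59.0, 50.5 and 79.6 CPM in the prophylactic and 52.7, 45.1 and 79.9 CPM in the therapeutic regimen. Kit, the stem cell factor receptor found on mast cells, was at 12.3, 14.2 and 12.3 CPM in Sac/val prophylactic libraries, against 20.1, 24.96 and 23.6 CPM in Val prophylactic libraries, and Cpeb2, an RNA-binding translation regulator, gave -0.92 ± 0.19 log2 (SE). The mast cell list had a median of -0.69 over 7 genes in this regimen, with 2 lower at an unadjusted p below 0.05 (beside 2.78% of all genes), Kit and Tpsb2, a mast cell tryptase.

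**Figure D4:**
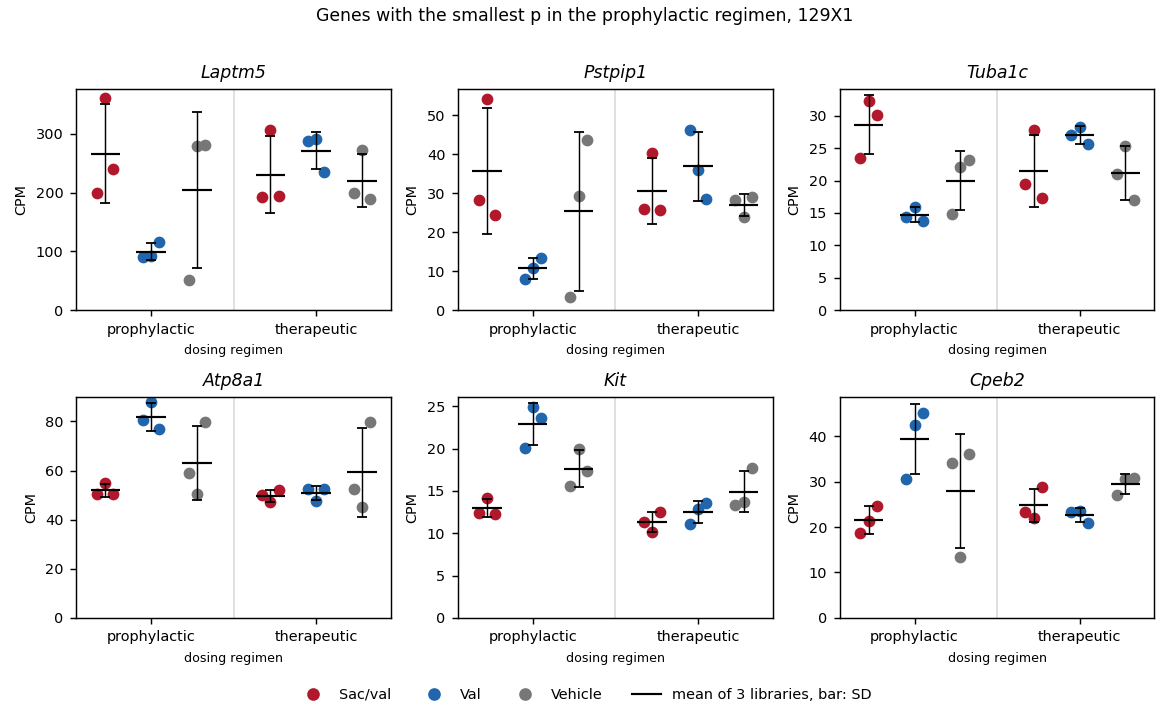
Expression in CPM (y axes, linear, from 0) of the 6 genes with the smallest p in the prophylactic regimen, in each 129X1 library by treatment and regimen. Points are libraries, lines are means of 3 libraries and bars are SD, and the prophylactic Sac/val and Val groups do not overlap in any of the 6 panels.

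Cytokine and adhesion, macrophage and neutrophil genes had medians above 0 in the prophylactic regimen and below 0 in the therapeutic one, and none of their members passed in edgeR in either. The B and plasma cell list went the other way, with a prophylactic median of -1.67 (8 of 11 below 0) and a therapeutic median of 1.92 (11 of 11 above 0, 6 with groups that did not overlap, beside 3.73% of all genes). Mast cell genes were also below 0 in the prophylactic regimen for 6 of 7 and above 0 in the therapeutic regimen for 5 of 7. Of 22 cytokine and adhesion genes, 6 were higher at an unadjusted p below 0.05 in the prophylactic regimen, beside 2.85% of all genes, and 0 lower, with a median of 1.14. The groups did not overlap for 7 of the 22, all higher in Sac/val, beside 7.34% of all genes. Under the therapeutic regimen 0 of 22 reached that level and the median was -0.30. The 6, named here as a count of members after their values were seen, were Il1a, Ccl4, Cxcl12, Vcam1, Icam1 and Osm, all genes that recruit, hold or activate leukocytes. Vcam1, an endothelial adhesion molecule for leukocytes, was at 56.5, 74.9 and 59.8 CPM in Sac/val prophylactic libraries, against 51.5, 34.9 and 39.9 CPM in Val prophylactic libraries, a log2 difference of 0.56 ± 0.17 (SE; adjusted p = 0.663). Icam1 was at 29.97, 51.2 and 50.7 CPM in Sac/val prophylactic libraries, against 28.0, 25.3 and 28.3 CPM in Val prophylactic libraries.

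Macrophage genes had a prophylactic median of 0.57 over 15, with 2 higher at an unadjusted p below 0.05 (beside 2.85% of all genes), Cd68, chosen after its values were seen, and Ms4a7, and a therapeutic median of -0.03. Over both regimens all 15 were above 0 (median 0.32) and 0 reached that level, with Aif1, a macrophage actin-binding protein, at 0.32 ± 0.23 log2 (SE). Neutrophil genes had a median of 1.37 in the prophylactic and -0.38 in the therapeutic regimen, led over both by Csf3r, the granulocyte growth factor receptor, at 0.51 ± 0.46 and Retnlg at -0.51 ± 0.46. Tgfb1, the transforming growth factor gene, was at 58.4, 69.0 and 73.2 CPM in Sac/val prophylactic libraries, against 39.5, 35.3 and 29.0 CPM in Val prophylactic libraries, a log2 difference of 0.91 ± 0.20 (SE; adjusted p = 0.663). Thymocyte content differed between libraries of both groups. The summed level of the 14 thymocyte and T cell markers was 1541.5, 2748 and 54.5 CPM in Sac/val prophylactic libraries, against 7.45, 5.64 and 637 CPM in Val prophylactic libraries. Over both regimens the log2 difference of Tgfb1 ran from 0.24 to 0.98 across the alternatives, a fit with a thymocyte score among them. The part of thymocyte content in its prophylactic difference was not tested. The Sac/val sums of 1541.5 and 2748 CPM lay above every Val prophylactic library, while that of 54.5 CPM did not. Skeletal muscle went the other way, with Acta1 at 3181, 27.8 and 92.2 CPM in Sac/val prophylactic libraries, against 9397, 609 and 5741 CPM in Val prophylactic libraries.

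Within the therapeutic regimen 0 of 17281 genes passed (0%), with a smallest adjusted p of 1.00. At an unadjusted p below 0.05, 82 genes were higher in Sac/val (0.475%) and 35 lower (0.203%), and DESeq2 also called 0. The libraries did not overlap for 645 genes higher (3.73%) and 890 lower (5.15%). The smallest p among higher genes belonged to Mir6236, Cables1, a cyclin-dependent kinase adaptor, and Lars2, the mitochondrial leucyl-tRNA synthetase. Lars2 was at 372, 471 and 861 CPM in Sac/val therapeutic libraries, against 276, 274 and 233 CPM in Val therapeutic libraries, a log2 difference of 1.16 ± 0.32 (SE). Gm42418, which RefSeq annotates as related to 18S ribosomal RNA and which was chosen after its values were seen, was at 3585, 4554 and 8200.5 CPM in Sac/val therapeutic libraries, against 2242, 2269.6 and 1762 CPM in Val therapeutic libraries. With Gm42418 as a covariate the therapeutic log2 difference was -0.12 for Lars2 and 0.07 for Mir6236. Gm42418 itself did not overlap between these groups (as for 3.73% of all genes), so that fit cannot tell its level from treatment. The smallest p among lower genes belonged to Ppfia2, Slc4a8 and Agtrap.

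Fat genes were higher in Sac/val than in Val in the therapeutic regimen and lower in the prophylactic one, without passing in either. All 15 adipocyte genes had a log2 difference above 0 in the therapeutic regimen (median 0.41) and all 15 were below 0 in the prophylactic regimen (median -0.38). Under the therapeutic regimen 7 of 15 had libraries that did not overlap, beside 3.73% of all genes, among them Cidec, a lipid droplet protein, and, chosen after its values were seen, Adipoq, adiponectin. Brown fat genes had medians of 0.59 in the therapeutic and -0.43 in the prophylactic regimen. Ucp1, the uncoupling protein of brown fat, was at 3139.7, 2564 and 3091 CPM in Sac/val therapeutic libraries, against 1732, 1351 and 2263 CPM in Val therapeutic libraries. In the prophylactic regimen Ucp1 was at 1967, 1363 and 2476 CPM in Sac/val libraries, against 927, 3059.9 and 2803 CPM in Val libraries. Over both regimens Ppargc1a, a regulator of mitochondrial genes, gave -0.56 ± 0.34 and Retn, resistin, -0.21 ± 0.27 log2 (SE). Mitochondrial respiration genes moved alongside, with 20 of 20 above 0 in the therapeutic regimen (median 0.25) and 20 of 20 below 0 in the prophylactic regimen (median -0.34), and Atp5o and Cox6c at -0.11 and -0.12 over both.

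A test of the difference between regimens, therapeutic minus prophylactic, called 0 of 17281 genes (0%) in edgeR, with 474 higher (2.74%) and 259 lower (1.5%) at an unadjusted p below 0.05, and 1 gene in DESeq2. The 5 smallest p belonged to Atp8a1, Tuba1c, Laptm5, Agtrap and Cpeb2. Laptm5 gave -1.57 ± 0.36 and Tuba1c, an alpha tubulin, -1.21 ± 0.26 log2 (SE), with log2 differences above 0 in the prophylactic and below 0 in the therapeutic regimen, and Cpeb2 gave 1.09 ± 0.26. Of the lists, 5 of 11 B and plasma cell, 3 of 10 brown fat and 2 of 7 mast cell genes were higher at an unadjusted p below 0.05, beside 2.74% of all genes. Lower at that level were 3 of 22 cytokine and adhesion genes and 2 of 8 epithelial genes, beside 1.5%. None of these lists had a gene at that level in the other direction. Within the regimens B cell content was itself uneven, with Cd79a, a B cell receptor subunit, at 19.4, 2.08 and 2.00 CPM in Sac/val therapeutic libraries, against 0.917, 0.447 and 1.02 CPM in Val therapeutic libraries, and at 2.42, 0.831 and 0.664 CPM in Sac/val prophylactic libraries, against 0.569, 0.224 and 16.8 CPM in Val prophylactic libraries.

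**Figure D5:**
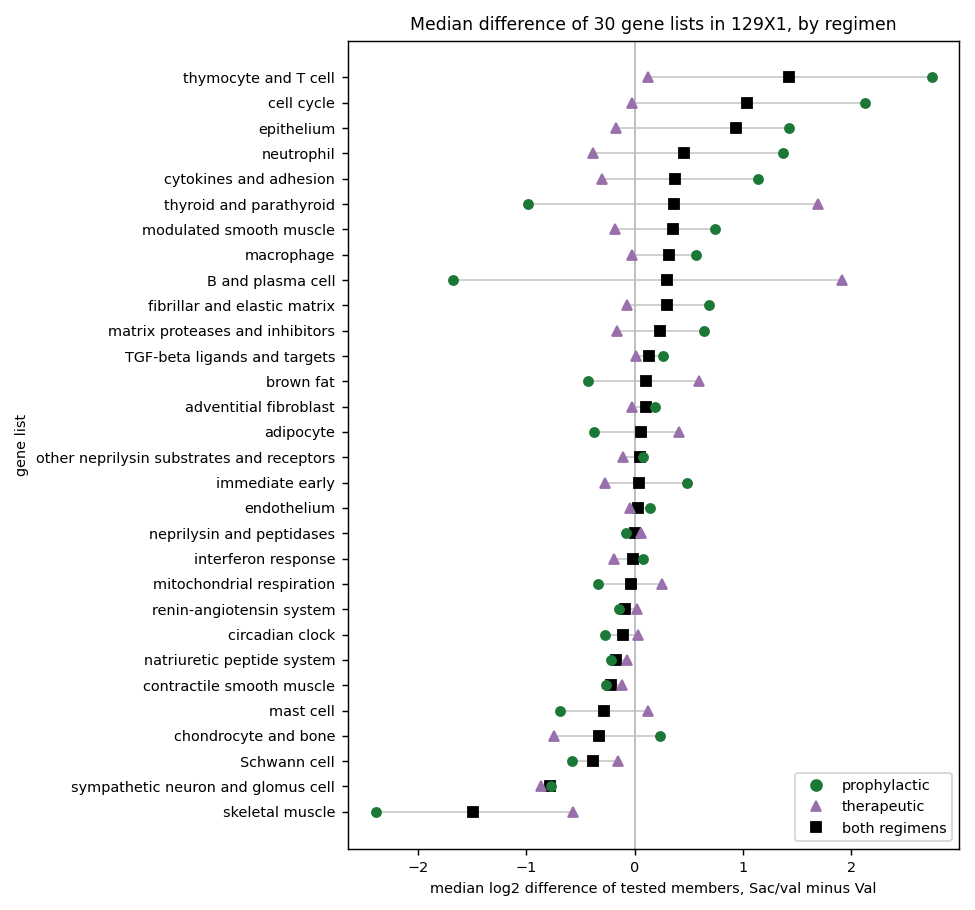
Median log2 difference, Sac/val minus Val (x axis), of the tested members of 30 gene lists (y axis), with circles for the prophylactic regimen, triangles for the therapeutic regimen and squares for both. The lists farthest from 0 over both regimens are thymocyte and T cell at 1.42 and skeletal muscle at -1.49, tissues outside the artery wall.

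The remaining lists describe tissue content and general states. Thymocyte and T cell genes had a median of 1.42 over 14, with Ptcra, the pre-T cell receptor chain, at 1.49 ± 1.33 and Cd3d at 1.47 ± 1.36 log2 (SE), and 0 at an unadjusted p below 0.05. Cell cycle genes were all above 0 over both regimens with a median of 1.03 over 12, led by the mitotic kinases Cdk1 at 1.11 ± 0.79 and Aurka at 0.98 ± 0.71. Their median was 2.13 in the prophylactic and -0.03 in the therapeutic regimen, where 8 of 12 were below 0. The thymocyte medians were 2.74 in the prophylactic and 0.13 in the therapeutic regimen. Cdk1 was at 29.2, 37.8 and 6.28 CPM in Sac/val prophylactic and 26.9, 35.96 and 5.72 CPM in Sac/val therapeutic libraries, against 2.14, 1.83 and 10.8 CPM in Val prophylactic and 48.3, 8.95 and 12.4 CPM in Val therapeutic libraries. In 8 of these 12 libraries Rag1 was at 10 CPM or more, and the Cdk1 level was 8.95 CPM or higher in those 8 and 6.28 CPM or lower in the other 4. Skeletal muscle genes had a median of -1.49 over 15, with Myh4 at -2.08 ± 1.80 and Ckm at -1.83 ± 1.63. The 11 genes of the B and plasma cell list gave a median of 0.30, with Jchain at 1.12 ± 0.72 and Igkc at 1.04 ± 0.83. Thyroid and parathyroid genes had a median of 0.37 over 8, with Duox2 at 0.50 ± 0.62.

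Epithelial genes had a median of 0.94 over 8, with Scgb1a1, an airway secretory protein, at -2.24 ± 0.94 and Bpifa1 at 2.02 ± 1.72, each with 1 library far above the rest, at 6.50 CPM of Scgb1a1 in Val therapeutic replicate 1 and 196 CPM of Bpifa1 in Sac/val therapeutic replicate 1. Chondrocyte and bone genes had a median of -0.33 over 11, with Chad at -2.59 ± 1.19 and Cilp2 at -2.17 ± 1.00. Interferon response genes had a median of -0.01 over 20, and Ifit1 and Xaf1 gave -0.34 ± 0.17 and -0.21 ± 0.12. Immediate early genes had a median of 0.04 over 17, with Btg2 at 0.64 ± 0.38 and Atf3 at -0.79 ± 0.52. Circadian clock genes had a median of -0.11 over 17, with Cry2 at -0.24 ± 0.13 and Dbp at -0.20 ± 0.14, and 16 of 17 had intervals within a 2-fold change in either direction. Of these lists, 1 gene of the epithelial list, Scgb1a1, was lower at an unadjusted p below 0.05 over both regimens (beside 1.83% of all genes).

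Whether the added inhibitor gave another difference in 129X1 than in B6 was tested over 24 libraries. No gene of 18232 passed in edgeR (0%; smallest adjusted p 0.250), 1974 were higher (10.8%) and 1172 lower (6.43%) at an unadjusted p below 0.05, and DESeq2 called 197. The 5 smallest p belonged to Igha, Ighg2b, Pink1, Bmf and Casp8. Pink1, a mitochondrial quality control kinase, averaged 199.9 ± 36.8 CPM in Sac/val and 256 ± 50.6 CPM in Val arteries of 129X1, against 240.5 ± 47.3 CPM in Sac/val and 165 ± 20.6 CPM in Val arteries of B6 (SD, n = 6 each), a difference of differences of -0.93 ± 0.24 log2 (SE; adjusted p = 0.250). Bmf and Casp8, both of cell death pathways, gave 1.06 ± 0.27 and 0.71 ± 0.18. Igha, the immunoglobulin A heavy chain, averaged 48.9 ± 38.2 CPM in Sac/val and 25.9 ± 26.4 CPM in Val arteries of 129X1, against 15.7 ± 17.6 CPM in Sac/val and 99.1 ± 78.1 CPM in Val arteries of B6. Mme gave -0.88 ± 0.40 (adjusted p = 0.280), with 68.9 ± 35.9 CPM in Sac/val and 39.4 ± 10.1 CPM in Val arteries of B6. All 14 thymocyte and all 12 cell cycle genes were higher at an unadjusted p below 0.05, and 18 of 20 mitochondrial respiration genes were lower. All 15 adipocyte, 10 brown fat and 15 skeletal muscle genes were also below 0, with medians of -0.59, -0.84 and -4.35. The part of these tissues in the mitochondrial count was not tested. Rag1 in B6 was at 0.0799 to 8.00 CPM in Sac/val and at 0.240 to 1590.1 CPM in Val libraries, where 1 library of each regimen was high (1590.1 and 869 CPM), and its part in these counts was not tested.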

How the data were processed

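Total RNA from carotid arteries was made into stranded mRNA libraries, per the labels' protocols. The authors deposited whole-number read counts per gene symbol, not normalized. The submitters' processing notes name Trimmomatic 0.36, STAR 2.5.2b, Subread 1.5.0p3 with featureCounts and the build GRCm38, while whether reads were counted by strand is not given in the sources used here. Gene coordinates are those of the GENCODE annotation of GRCm38, matched by symbol.

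Counts were tested with edgeR 4.0.16 in R 4.3.3 (TMM scaling, filterByExpr over the groups, quasi-likelihood test, Benjamini-Hochberg adjustment over all genes tested), with an adjusted p below 0.05 as the threshold. The 12 libraries were fitted with regimen as a covariate (9 residual degrees of freedom), values within a regimen came from group means of the same libraries (8), and the strain comparison used 24 libraries (16). Levels are CPM with TMM factors over all 36 libraries. DESeq2 1.42.0, limma 3.58.1, other scalings and filters, tissue scores and leaving out each library were alternatives. Scripts were tested on simulated data. The labels name separate animals, and no 2 libraries held identical counts.

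The 30 gene lists and the comparison were chosen with earlier results of these data known. Named genes are the neprilysin, natriuretic peptide and angiotensin genes, all members of the first 4 lists, the 10 genes per direction over both regimens, 3 per direction in a regimen and 5 per interaction with the smallest p at 5 CPM or more, the 2 members of each other list with the smallest p, and single tissue markers. Of these, 3 genes are not reported here. Predicted gene models were passed over, and any other gene is said to be chosen after its values were seen.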

Additional observations from a re-analysis of the deposited data

Results flagged for a closer look

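The prophylactic and therapeutic differences of Atp8a1, a phospholipid flippase, differed from each other in DESeq2, with a therapeutic minus prophylactic difference of 0.67 log2 (adjusted p = 0.0329). In edgeR's quasi-likelihood test the same difference was 0.70 log2 and did not pass (adjusted p = 0.838). Every prophylactic Sac/val library was below every prophylactic Val library, as for 3.75% of all genes, and the therapeutic groups overlapped.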

How the results depend on the processing

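No paired analysis was possible because the labels carry animal numbers and no replicate numbers, so libraries share no number across groups. Leaving out 1 library at a time, the count of genes passing ran from 0 to 303 over both regimens, from 0 to 86 in the prophylactic regimen, from 0 to 1 in the therapeutic regimen, from 0 to 0 for the difference between regimens and from 0 to 0 for the difference between strains. The counts of 303 and 86 came without Val prophylactic replicate 3, and the 1 therapeutic call, Bglap, came without Val therapeutic replicate 1. DESeq2 called 17 genes in the prophylactic regimen, 1 for the difference between regimens and 197 for the difference between strains, where edgeR called 0. The cause was not tested. None of the values below passed in the main comparison.

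Directions that turned are given as log2 differences, over both regimens unless stated. The therapeutic value of Agtr1a was -0.00909 with DESeq2 size factors, -0.00873 in DESeq2, -0.0163 with no filter on low counts and -0.0125 with all 36 libraries in 1 fit. With scores for skeletal muscle, adipocyte and Schwann cell content, values were 0.043 for Mme, 0.0597 for Npr1, 0.0603 for Npr2, 0.18 for Npr3, 0.081 for Agtr1a, 0.19 for Cma1, 0.12 for Synpo2, -0.23 for Ptcra, -0.29 for Cd3d, -0.063 for Jchain, -0.14 for Igkc, -0.091 for Btg2, 0.18 for Atf3, 0.048 for Atp5o, 0.013 for Cox6c, 0.17 for Ckm, -1.71 for Bpifa1, -0.12 for Cdk1, -0.28 for Aurka, 0.069 for Npr1 (prophylactic), 0.086 for Npr3 (prophylactic), 0.0603 for Agtr1a (prophylactic), 0.11 for Npr2 (therapeutic) and -0.016 for Npr1 (therapeutic minus prophylactic). With thymocyte, thyroid and sympathetic scores they were 0.10 for Agtr1a, 0.076 for Vip, 0.23 for Atf3, 0.057 for Prph, 0.025 for Agtr1a (prophylactic), -0.086 for Npr1 (therapeutic), -0.20 for Ace (therapeutic), -0.059 for Npr1 (therapeutic minus prophylactic) and -0.11 for Npr2 (therapeutic minus prophylactic). Under limma voom with quality weights they were 0.22 for Mme, -0.24 for Ace, -0.017 for Col5a2, -0.054 for Selp, -0.20 for Sele, -0.10 for Mfap5, -0.20 for Lum, 0.034 for Cox6c, -0.11 for Npr1 (therapeutic) and -0.21 for Ace (therapeutic). Without libraries at 10 CPM or more of Rag1 they were 0.034 for Npr1, 0.072 for Agtr1a, -1.57 for Ighg2b, -0.038 for Mfsd2a, -0.059 for Prep, 0.20 for Prkg2, 1.05 for Retnlg, 0.055 for Dbp and 0.28 for Retn. With animal number as a covariate the value was 0.13 for Ace (therapeutic minus prophylactic). In alternatives chosen after seeing the data, it was -0.14 for Duox2 without libraries at 100 CPM or more of Tg, and with Gm42418 as a covariate values were -0.00083 for Inhba, -0.12 for Duox2, -0.21 for Npr1 (therapeutic), -0.54 for Ace (therapeutic) and -0.12 for Lars2 (therapeutic).

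Leaving out 1 library at a time gave ranges that crossed 0, of -0.0487 to 0.36 for Ace, -0.18 to 0.75 for Ace (prophylactic), -0.69 to 0.23 for Ace (therapeutic minus prophylactic), -0.24 to 0.20 for Mme, -0.34 to 0.27 for Npr3, -0.10 to 0.13 for Agtr1a (therapeutic), -0.48 to 0.0082 for Agtr1a (prophylactic), -0.023 to 0.50 for Agtr1a (therapeutic minus prophylactic), -0.13 to 0.23 for Npr1 (therapeutic), -0.22 to 0.34 for Ace (therapeutic), -0.30 to 0.051 for Npr2 (therapeutic), -0.51 to 3.87 for Bpifa1, -0.24 to 0.68 for Duox2 and -0.14 to 0.43 for Ace (129X1 minus B6). The other values kept their direction, 1294 with the alternatives that change a setting and 1649 with 1 library left out, and 12 and 9 more also crossed the threshold. Of genes at 5 CPM or more, 84.2% had an interval over both regimens within a 2-fold change, beside 68.4% in the prophylactic and 75.1% in the therapeutic regimen, which is the precision that 3 libraries per group gave.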
